A study of Sus scrofa with 75 samples.

Results

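The heart was set against kidney, liver, lung and spleen of pigs, over all genes and over the transcripts that each gene used. The heart libraries were those whose column in the deposited tables is named for heart, 12 of 60 short-read libraries, and the other 4 organs had 12 libraries each. Per the labels, all animals were adult male pigs aged 12 months, with no treatment or genotype given, and the study's title calls them Chinese local pigs. Illumina sequencing followed depletion of ribosomal RNA, and PacBio sequencing of full-length RNA molecules added 3 heart libraries of 15. The short-read columns carry 3 codes with 4 numbers each. BS and DSE are codes of the labels, which do not say what they mean. The code DQ is in no label, while the labels hold a code, DT, that is in no column, so the DQ columns were used for their organ alone. The labels name neither the part of the heart that was sampled nor the animal behind a number, and the p-values below measure the spread between these libraries. The deposited tables held 35798 genes and 94894 transcripts, in TPM, a level relative to the library's total, which corrects for length and sums to the same total in every library.

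Heart muscle cells shorten by sliding thick filaments of myosin along thin filaments of actin, and calcium released from the sarcoplasmic reticulum starts each beat. The heart beats without rest, so its muscle cells are packed with mitochondria and burn mainly fatty acids, with glucose, lactate and ketone bodies as further fuels. Many enzymes, channels and carriers come in related forms from sister genes or from splicing of 1 gene, and striated muscle is known for making its own forms of many of them. Heart tissue also holds endothelium, fibroblasts, pericytes, nerve, fat and blood cells, and in bulk RNA fewer cells of a type and less RNA per cell cannot be told apart.

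The 3 markers of heart muscle fitted the organ label in all 12 heart libraries. MYL2, the regulatory light chain of ventricular myosin (ENSSSCG00000039710, susScr11 chr14:32205273-32213722), had 8130, 10326 and 12910 TPM as its lowest, median and highest value in heart. TNNT2, cardiac troponin T, had 5982, 9207 and 13441 TPM, and MYH7, the slow myosin heavy chain, had 3642, 5401 and 8840 TPM. Outside the heart 1 library, BS4 liver, held 47.1 TPM of MYL2, 65.4 of TNNT2 and 30.8 of MYH7, and no other library passed 2.21 TPM of any of them. In 1 spleen library, DQ1, ALB of hepatocytes reached 323 TPM. The DQ4 heart library held the largest share of mitochondrial transcripts of the hearts, 62.7% of TPM. These 3 libraries, BS1 kidney and BS2 lung stood apart from their organs, and the main counts are given with and without these 5. Transcripts of EIF1AY and ZFY, which lie on the Y chromosome, summed to 66.2 to 89.2 TPM in 4 of 12 heart libraries and were listed at 0 in the other 8, although the labels call all animals male. The other organs also had 4 of 12 libraries with such transcripts. Full-length reads numbered 224308 to 368976 in the heart libraries and 119623 to 456783 over all 15.

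Heart RNA was richer in transcripts of the mitochondrial genome and came from fewer genes than RNA of 3 of the 4 other organs. The mitochondrial genome made up 39.6 ± 8.3% of TPM in heart (SD, n = 12), against averages of 22.4% (kidney), 9.72% (liver), 7.17% (lung) and 6.88% (spleen). No heart library overlapped with any of these organs, and each difference had an adjusted p of at most 4.6e-05 by a two-sided permutation test, by resampling 100000 times, with 2e-05 as the smallest unadjusted p it can give. Heart libraries had 11851 ± 274 genes at 1 TPM or more, against 13342 in kidney, 14285 in lung and 13306 in spleen, all with adjusted p = 2.7e-05 by permutation, while liver reached 11524 genes (adjusted p = 0.0045, permutation). The 10 highest nuclear genes took 8.83 ± 1.43% of heart TPM, against 24.4% in liver, 14% in lung and 13.3% in spleen (each adjusted p = 2.7e-05, permutation), and the difference from kidney, at 8.09%, did not pass (adjusted p = 0.12, permutation). Without the DQ4 heart library it passed, at 1.04 points above kidney. Over nuclear TPM alone the order was another one: these genes took 14.6 ± 1.09% in heart, and means of 10.4% in kidney and 27% in liver differed from it (each adjusted p = 3.4e-05, permutation), while 15.1% in lung and 14.3% in spleen did not pass (adjusted p = 0.49 and 0.63, permutation). The differences in gene number passed on that scale too. Among nuclear genes the thin filament troponins TNNC1 and TNNI3 led heart RNA with means of 13497 and 11913 TPM, followed by ACTA1, MYL2 and TNNT2. The only gene among the 10 highest that was not higher in heart than in every other organ was TPT1, at 5753 TPM.

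Heart was separated from the 4 other organs by 1310 genes, of which 555 stood above and 755 below all of them. Genes were tested with limma on log2(TPM + 1) where their mean reached 1 TPM in at least 1 organ. A gene is called heart-high here where heart was at least 2-fold above each of the 4 other organs and the largest of the 4 p-values passed Benjamini-Hochberg adjustment at 0.05, and heart-low on the mirror rule. Of 16413 genes tested, 3.38% were heart-high, 4.60% heart-low and 7.98% either. Without the 5 libraries that stood apart the counts were 575 and 727. Among libraries with Y-linked transcripts they were 526 and 621, and among those without them 561 and 798. Every heart library stood above every other library for 405 genes (2.47%) and below every other for 746 (4.55%). These counts depend on the scale: the median difference over all genes, heart minus the other organ, was log2 -0.59 for kidney, 0.05 for liver, -1.01 for lung and -0.67 for spleen. Scaling by median ratios, which removes this shift, gave 1127 heart-high genes (6.95%) and 278 heart-low genes (1.71%), and 551 and 234 genes were called on both scales. The calls named below are those of TPM as deposited, and the other scale is given where it changes them.

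Set against single organs, heart was at least 2-fold higher in 1278 genes (7.79%) and lower in 5465 (33.3%) than in kidney. Against liver, 2896 genes (17.6%) were higher and 2401 (14.6%) lower. Against lung, 1025 (6.25%) were higher and 8298 (50.6%) lower, and against spleen 1561 (9.51%) and 6230 (38.0%). Median-ratio scaling gave 2528 higher and 2722 lower genes against kidney, 2817 and 3066 against liver, 2442 and 2723 against lung, and 2979 and 2586 against spleen, so the larger side turned for liver and spleen. Of the 555 heart-high genes 156 had a mean under 1 TPM in all 4 other organs and passed the filter through heart alone. Together the heart-high genes made up 28.8 to 34.8% of the nuclear TPM of a heart library, with a median of 32.5%, against medians of 2.25% (kidney), 0.897% (liver), 1.33% (lung) and 1.20% (spleen). The heart-low genes made up a median of 2.34% in heart and 9.44 to 18.7% in the other organs.

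**Figure D1:**
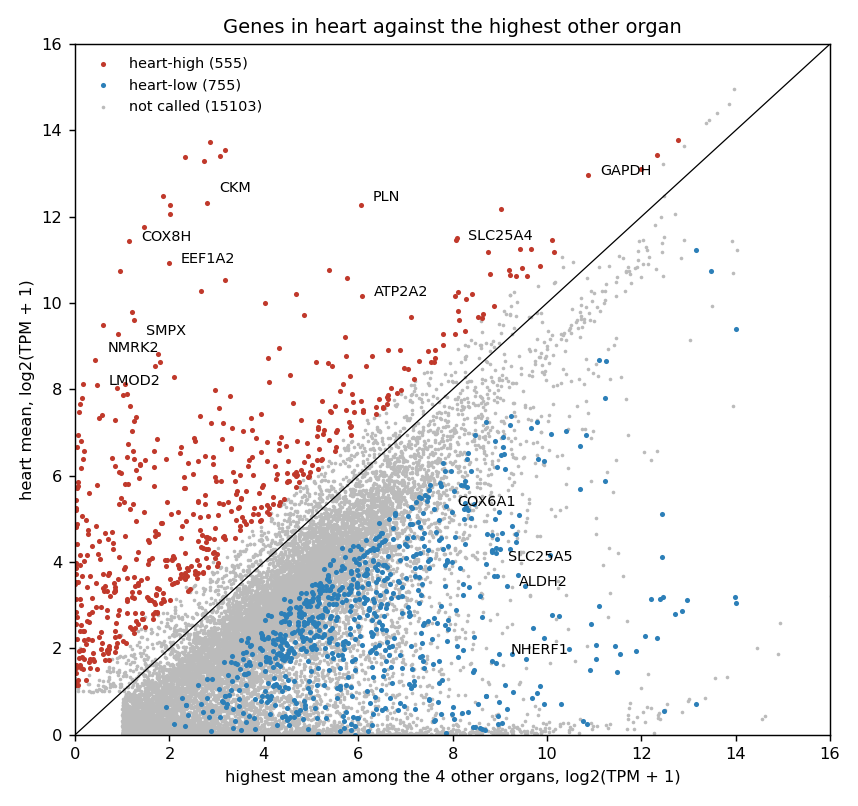
Each point is a gene, with its mean in heart on the y axis and its highest mean among the 4 other organs on the x axis, both as log2(TPM + 1), and colours mark the 555 heart-high, 755 heart-low and uncalled genes of 16413. A column of heart-high genes stands at the left edge, where the other organs had next to no transcript.

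The contractile filaments stood farthest above the other organs. Of 13 measured filament genes 11 were heart-high, against 3.38% of all genes, with a median difference of log2 10.49 from the highest other organ, where the median over all genes was -1.41. MYBPC3, myosin binding protein C, had 393, 694 and 1102 TPM as its lowest, median and highest value in heart and at most 4.75 TPM in any other library, and MYL3, the ventricular essential light chain, 2955, 4536 and 7010 TPM against at most 33.1. The exceptions were fetal or atrial forms: MYL4, the atrial essential light chain, averaged 5.78 ± 3.60 TPM in heart and 3.08 in kidney, and TNNI1, slow skeletal troponin I, 1.01 ± 1.03 TPM in heart and 1.06 in kidney. MYL4 was heart-high with median-ratio scaling. All 18 measured genes of the Z disc and the costamere, which anchor the filaments to each other and to the membrane, were heart-high on both scales. TCAP, the titin cap, had 1249, 4147 and 6601 TPM in heart and at most 33.7 TPM elsewhere, and MYOZ2, which ties calcineurin to the Z disc, 2199, 3552 and 4339 TPM against at most 20.4. CSRP3, the muscle LIM protein, varied more, with 479, 1772 and 2663 TPM in heart against at most 10.9. In each of these 3 genes, and for XIRP1 at 45.0, 72.7 and 305 TPM against at most 0.331, all heart libraries lay above all others.

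Outside the 2 lists of filament and Z-disc genes, the 12 genes most above the other organs included genes of energy buffering, translation and the upkeep of filaments. COX8H, the muscle form of subunit 8 of cytochrome c oxidase (ENSSSCG00000061991, chr2:69200-70732), had 1396, 2687 and 3584 TPM in heart. It was listed at 0 in all kidney and lung libraries and passed 1.08 TPM in 1 other library, BS4 liver, at 14.6 TPM. CKM, muscle creatine kinase, had 3047, 5406 and 7158 TPM in heart, and its smallest difference from another organ was log2 9.55 (SE 0.31, limma adjusted p = 5e-36). CKMT2, its mitochondrial partner, had 487, 1274 and 2047 TPM in heart and at most 12.5 elsewhere. EEF1A2, the elongation factor form of muscle and neurons, had 966, 2079 and 2789 TPM in heart against at most 14.2 elsewhere. NMRK2, a nicotinamide riboside kinase that feeds NAD synthesis, had 196, 439 and 656 TPM in heart and at most 3.96 elsewhere.

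TECRL, whose human gene is mutated in an inherited arrhythmia, had the steadiest difference of these genes, at 135, 196 and 259 TPM in heart against at most 0.95 TPM. Its smallest difference was log2 7.54 (SE 0.08, limma adjusted p = 7e-63). KLHL41 and LMOD2, which act in the assembly of sarcomeres and set the length of thin filaments, had medians of 271 and 243 TPM in heart and stayed at or below 1.19 TPM elsewhere. SMPX, a small muscle protein, had 325, 892 and 1158 TPM in heart against at most 4.11. MYOT, LRRC39 and ANKRD23, proteins of the Z disc, the M band and the titin spring, had heart medians of 178, 262 and 267 TPM and at most 2.52 TPM elsewhere. The rule that named these 12 genes required every heart library to lie above every other library.

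Calcium handling was heart-high in 11 of 14 measured genes, against 3.38% of all genes, with a median of log2 2.41 above the highest other organ. PLN, phospholamban, the brake on the calcium pump, had 3338, 5173 and 6159 TPM in heart, against 10.4 to 139 TPM in the other organs. The pump itself, ATP2A2, had 866, 1112 and 1686 TPM in heart and 18 to 97.6 TPM elsewhere, and the release channel RYR2 had 62.4, 79.8 and 131 TPM against at most 11.2. HRC and TRDN, proteins of the store and of its release complex, had medians of 222 and 73.0 TPM in heart. SLN, sarcolipin, known from atrium and skeletal muscle, had 0, 1.5 and 8.49 TPM in heart and a mean of 4.88 in kidney. ASPH, which holds the junction protein junctin, and FKBP1B, which binds the release channel, did not pass either, with means of 30.2 and 3.29 TPM in heart.

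Ion channels were heart-high in 8 of 13 measured genes, and in 10 with median-ratio scaling, against 3.38% and 6.95% of all genes. KCNIP2, which shapes the transient outward current, had 38.5, 64.8 and 108 TPM in heart against at most 3.63 elsewhere. Heart libraries of KCNJ2, an inward rectifier, at 10.5 to 33.5 TPM overlapped with kidney at 2.44 to 11.2 TPM, and the difference was log2 1.74 (SE 0.16, limma adjusted p = 1.8e-14). The intercalated disc joins heart cells end to end. Of 14 of its genes 3 were heart-high and 6 with median-ratio scaling, against 3.38% and 6.95% of all genes. CTNNA3, NRAP and PKP2 passed, with medians of 10.1, 187 and 58.1 TPM in heart and no overlap. GJA1, the main gap junction protein of ventricle, had 107, 191 and 425 TPM in heart and 53.9 to 146 TPM in lung, a difference of log2 0.96 that fell short of 2-fold and passed with median-ratio scaling. GJA5, a gap junction protein of atrium, conduction fibres and vessels, averaged 10.3 TPM in heart and 42.5 in lung.

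Transcription factors of heart development were heart-high in 10 of 18 cases, and in 12 with median-ratio scaling, against 3.38% and 6.95% of all genes. NKX2-5 (chr16:51086011-51089162) had 15.5, 40.6 and 79.6 TPM in heart and 6.91 to 23.1 TPM in spleen, where it averaged 14 TPM, while the highest value in kidney, liver or lung was 0.421. GATA4 had 8.08, 17.2 and 22.8 TPM in heart and 3.57 to 10.6 in liver, so the lowest heart and the highest liver libraries overlapped. TBX20 and the muscle methyltransferase SMYD1 had medians of 19.9 and 53.9 TPM in heart and at most 0.42 TPM elsewhere. HAND1 and IRX4 were low but separate, at 2.31 to 7.34 and 2.08 to 8.22 TPM in heart against at most 1.12 TPM. GATA6, at 32.1 to 97.1 TPM in heart, missed the call against lung, at 23.1 to 41.1 TPM, and was called with median-ratio scaling.

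All 6 measured ventricular markers were heart-high, and 2 of 7 atrial markers, NPPA and KCNA5, against 3.38% of all genes. NPPA, atrial natriuretic peptide, had 1.69, 26.8 and 87.9 TPM in heart and at most 0.0805 TPM elsewhere. NPPB, the B-type peptide, spread still wider, with 0.171, 22.2 and 140 TPM in heart against at most 5.24 in lung, so that the groups overlapped (smallest difference log2 3.0, SE 0.46, limma adjusted p = 1.3e-07). Of 15 hormone genes and receptors 7 were heart-high, against 3.38% of all genes. RXFP1, the relaxin receptor, had 26.2, 38.4 and 59.8 TPM in heart against at most 4.44, CORIN, the protease that activates NPPA, 9.98, 23.9 and 39.6 TPM against at most 9.91, and EDNRA, an endothelin receptor, 29.6, 34.8 and 52.4 TPM against at most 18.9. NPPC, the C-type peptide, averaged 0.118 TPM in heart and 4.03 in spleen.

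**Figure D2:**
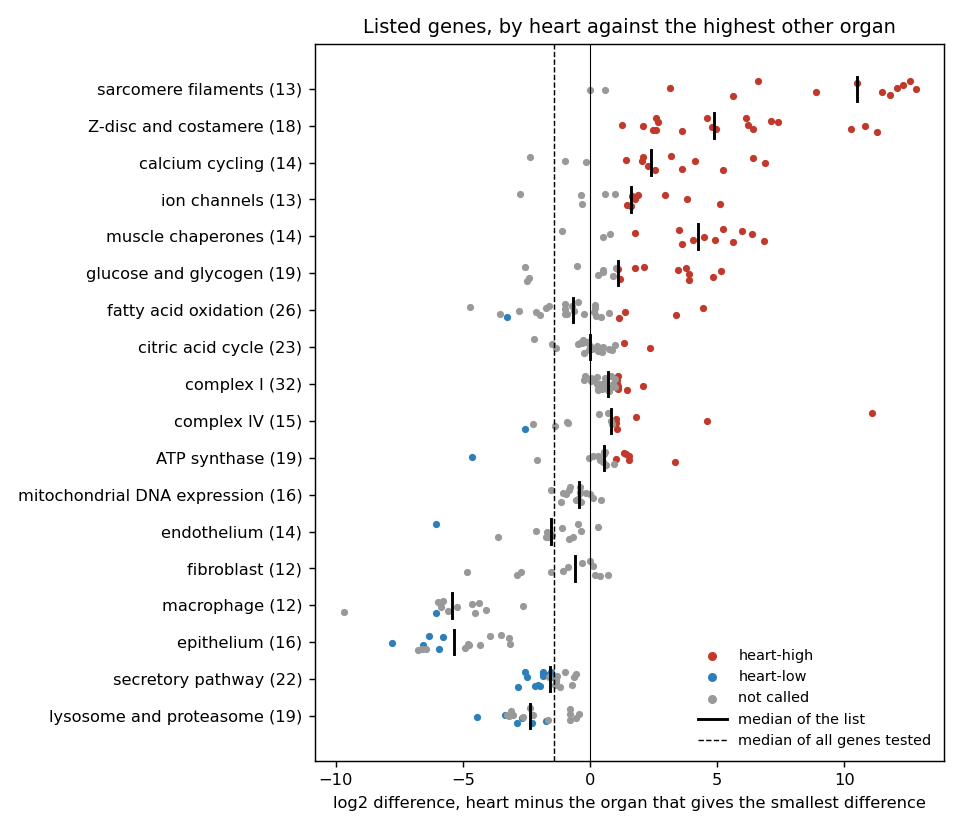
Each point is a listed gene, placed by the smallest of its 4 differences, heart minus another organ, on the log2(TPM + 1) scale, with lists from top to bottom and the number of measured genes in brackets. Filament and Z-disc genes reach past log2 10, complex I genes crowd near 1, and the medians of macrophage and epithelium genes lie near -5, against -1.41 for all genes tested.

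Fuel uptake and use was heart-high at certain steps rather than along whole pathways. Of 26 genes of fatty acid supply and oxidation 4 were heart-high and 1 heart-low, against 3.38% and 4.60% of all genes. LPL, the lipase that frees fatty acids from lipoproteins (chr14:4104772-4135817), had 227, 352 and 878 TPM in heart and at most 93.9 TPM elsewhere. CPT1B, the muscle form of the gate into mitochondria, had 48.4, 157 and 212 TPM in heart against at most 15.3, while CPT1A, the liver form, had 5.27, 9.94 and 16.9 TPM in heart and means of 40.4 to 116 TPM in the other organs. CPT1A was not called with median-ratio scaling. FABP3, which carries fatty acids in the cell, had 661 to 2886 TPM in heart and overlapped with kidney at 404 to 802 TPM. SLC27A1, a fatty acid transporter, was the other heart-high gene. The median of the list was log2 -0.68 against the highest other organ, and 7 genes were heart-high with median-ratio scaling, against 6.95% of all genes.

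Glucose use was heart-high in 10 of 19 genes, and in 13 with median-ratio scaling. SLC2A4, the insulin-regulated transporter, had 38.3, 60.7 and 93.5 TPM in heart against at most 13.8, while SLC2A1, the transporter of most tissues, averaged 5.49 ± 2.57 TPM in heart and 6.73 to 37.1 in the other organs. ENO3 and PGAM2, muscle enzymes of glycolysis, had medians of 1482 and 115 TPM in heart against at most 69.9 and 5.77. Glycogen phosphorylase was heart-high in its brain form PYGB, at 166, 306 and 438 TPM against at most 29.8, and in its muscle form PYGM, at 61.1, 121 and 142 TPM against at most 16. HK1, hexokinase 1, at 86.4 ± 18.3 TPM in heart and 59.3 in lung, was called with median-ratio scaling alone, as was OXCT1, which activates ketone bodies. None of 12 genes of ketone and branched amino acid use was heart-high as deposited, and 3 were with median-ratio scaling. Of all genes 3.38% and 6.95% were heart-high on these scales. OXCT1 had 124, 244 and 428 TPM in heart and 73.0 to 219 in kidney, with log2 0.79 (SE 0.18) as its smallest difference. GATM, the first enzyme of creatine synthesis, was heart-low at 0.938 to 3.54 TPM, against means of 608 TPM in kidney and 256 in liver, while the creatine kinases CKM and CKMT2 were heart-high.

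Respiratory chain genes had their highest mean in heart in most cases, and a minority passed the 2-fold call as deposited. Heart had the highest mean for 29 of 32 complex I genes, 9 of 13 of complexes II and III, 10 of 15 of complex IV and 16 of 19 of ATP synthase and its carriers. Over all 16413 genes tested, 1370 had their highest mean in heart. Of all genes 3.38% were called heart-high as deposited and 6.95% with median-ratio scaling. In these respiratory chain groups the counts called heart-high were 8, 3, 6 and 6, and 25, 9, 10 and 16 with median-ratio scaling. The heart-low genes among them were COX6A1 and SLC25A5, whose sister genes are described below. NDUFB1 had 413, 1242 and 1534 TPM in heart and 163 to 378 in kidney, and NDUFA1 644, 897 and 1138 TPM against 331 to 693 in kidney, which fell short at log2 0.73 and passed with median-ratio scaling. CYCS, cytochrome c, had 378, 498 and 626 TPM in heart with no overlap, and log2 2.05 as its smallest difference (SE 0.13, limma adjusted p = 6.9e-21). SDHA and SDHB, of the enzyme that complex II shares with the citric acid cycle, averaged 301 and 402 TPM in heart and 393 and 419 in kidney.

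Of 23 genes of the citric acid cycle and its entry 2 were heart-high, CS and IDH3A, which catalyse early steps, and 10 with median-ratio scaling. IDH3A had 238, 365 and 492 TPM in heart and at most 86.9 elsewhere. PDHA1, the entry enzyme's catalytic subunit, had 418 to 772 TPM in heart and 881 to 4004 in kidney. None of 16 genes that copy, transcribe or translate mitochondrial DNA was heart-high on either scale, where 3.38% and 6.95% of all genes were. For lists this short, having none is near those shares. TFAM averaged 22.2 ± 5.4 TPM in heart and 26.4 to 46.9 in the other organs. None of 13 regulators of mitochondrial content was heart-high as deposited, and 3 were with median-ratio scaling. PPARGC1A had 7.09, 13 and 29.9 TPM in heart and 20.8 to 34.4 in kidney. All 12 measured genes of the mitochondrial genome had their highest mean in heart, 3 were heart-high as deposited and 11 with median-ratio scaling, and none without the 5 libraries that stood apart. ND2 had 10384 to 20705 TPM in heart and 5606 to 8592 in kidney.

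Chaperones and ubiquitin ligases of muscle were heart-high in 11 of 14 genes, and in 13 with median-ratio scaling. Of all genes 3.38% and 6.95% were heart-high on these scales. TRIM63, a ubiquitin ligase of the sarcomere, had 93.7, 156 and 324 TPM in heart against at most 1.45, KLHL31 60.6, 85.2 and 129 TPM against at most 1.14, and UNC45B, a myosin chaperone, 13.8, 25.5 and 29.6 TPM against at most 0.978. CRYAB, a small heat shock protein, had 1406, 2574 and 4951 TPM in heart and 144 to 651 in kidney. HSPB1, at 836 ± 359 TPM in heart and 644 in lung, and FBXO32, at 29.1 ± 11 TPM in heart and 17.6 in kidney, were called with median-ratio scaling alone. BAG3, a cochaperone, averaged 32.8 TPM in heart and 72.3 in kidney. Of 16 splicing regulators RBM20 and RBFOX1 were heart-high, with medians of 20.3 and 6.0 TPM in heart against at most 0.707 and 0.229. MBNL1, another regulator of muscle splicing, averaged 42.3 TPM in heart and 167 in spleen.

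Heart used its own member of many gene families. For 22 families the share of the muscle form in the family's summed TPM was computed, a ratio that no scaling of a library changes. In 17 families every heart library lay above every other library, with or without the 5 libraries that stood apart, where 2.47% of single genes did so by level. The families were chosen for a known muscle form, so their direction is a description. COX6A2 made up 89.4, 93.3 and 95.2% of subunit 6A of cytochrome c oxidase in heart (lowest, median, highest) and medians of 5.99 to 16.2% in the other organs. Its sister COX6A1 had 22.3 to 50.8 TPM in heart and 72.1 to 315 elsewhere and was heart-low as deposited. For subunit 7A the swap was partial, with COX7A1 at 21, 26.2 and 31.4% in heart against at most 6.95%. COX8H made up 82.7, 92.0 and 97.9% of subunit 8 in heart and was listed at 0 in all kidney and lung libraries.

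The carrier that trades ADP for ATP across the inner membrane was mostly SLC25A4 in heart, at 81.9, 89.5 and 93.7%, with medians of 43.5% in liver, 9.72% in kidney, 6.36% in spleen and 3.78% in lung. Its sister SLC25A5 was heart-low on both scales, at 10.4, 18.6 and 33.1 TPM in heart and 72.8 to 633 TPM elsewhere. RPL3L, a muscle form of a core ribosomal protein, made up 24.8, 31.3 and 39.7% of its pair in heart and at most 1.99% elsewhere. RPL3 itself averaged 294 ± 77.6 TPM in heart and means of 492 to 1447 in the other organs. ENO3 made up 93.2 to 96.7% of enolase in heart and a median of 14% in lung, the next organ. CPT1B reached 89.9 to 94.6% in heart against at most 17.9%, and SLC2A4 83.5 to 94.8% against at most 16.5%. CKM made up at least 99.3% of cytosolic creatine kinase in all heart libraries, and outside the heart BS4 liver stood highest at 61.7%.

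Enzymes of energy sensing and nucleotide synthesis swapped form as well. SUCLA2, the ATP-forming beta subunit of succinyl-CoA ligase, made up 59.5, 72.1 and 75.4% of its pair in heart, against 6.54 to 37.1% in all other libraries, and PRKAA2, an AMP-activated kinase subunit, 72.9, 79.5 and 85.7% against 1.1 to 35.6%. ADSS1, an enzyme of AMP synthesis, made up 76.0, 88.0 and 94.1% in heart against at most 39.4%. Heart overlapped with kidney for the share of PPARGC1A, of ACACB and of FABP3, with heart medians of 76.4, 76.7 and 69.7% and kidney medians of 91.7, 70.2 and 84.6%.

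**Figure D3:**
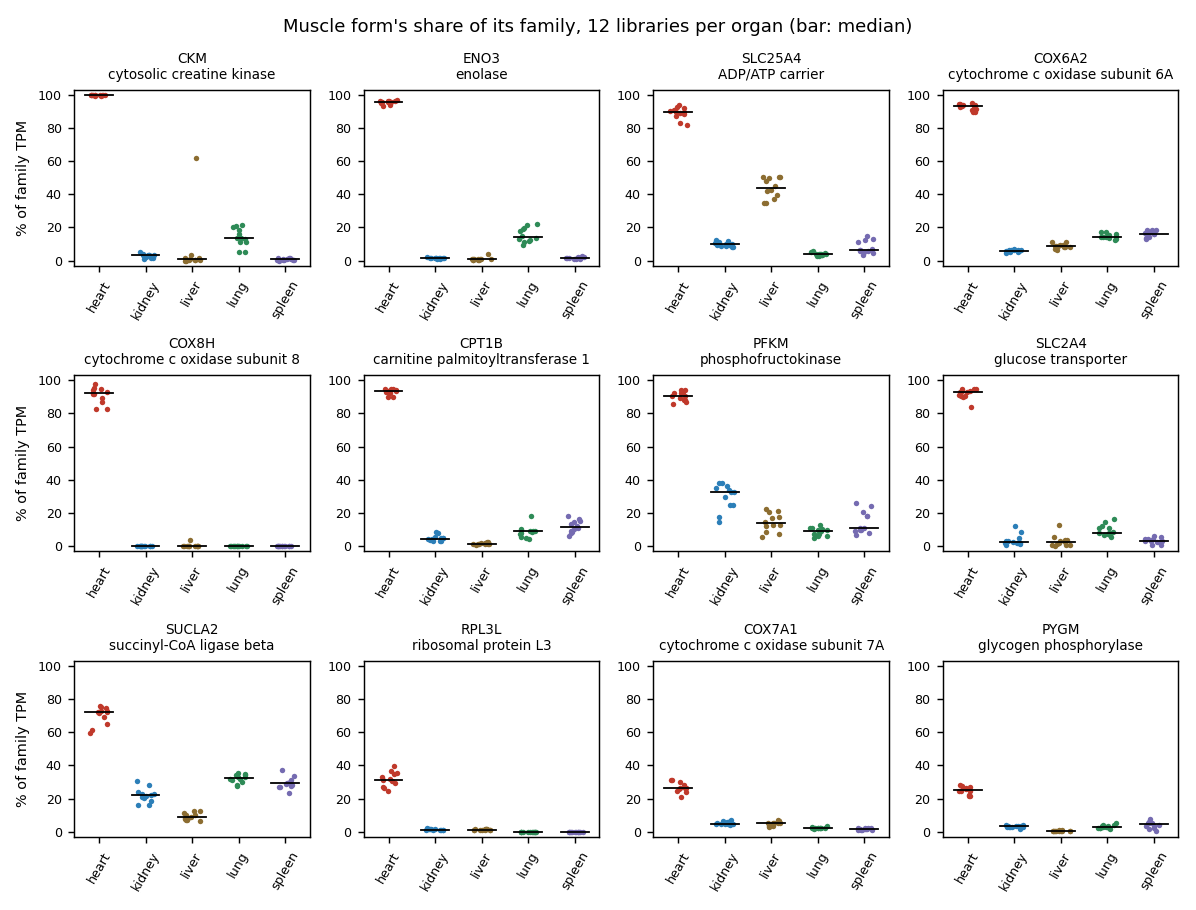
Each panel gives a muscle form's share of its family's summed TPM, in percent, in the 12 libraries of each organ with heart at the left, and bars mark medians. In the panels of families named in the text as separate, the heart points form a band above all others, such as COX6A2 at 89.4 to 95.2%.

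The 8 genes farthest below the other organs included proteins of plasma, of epithelia and of immune cells. C4orf19 (chr8:29013057-29103162) had 0, 0.0493 and 0.203 TPM in heart and 6.58 to 77.7 TPM elsewhere. CP, ceruloplasmin, a copper protein of plasma, had 0.0269, 0.113 and 1.21 TPM in heart against at least 5.0 TPM, and C4A, a complement protein, 0.533, 1.83 and 7.57 TPM against at least 12.9. KYNU, which breaks down kynurenine, had 0.208, 0.512 and 1.18 TPM in heart against at least 8.23. ALDH2, the mitochondrial aldehyde dehydrogenase, had 3.89, 9.22 and 17.6 TPM in heart and means of 111 to 566 TPM elsewhere, and SULT1A3, a sulfotransferase, 1.49 to 12.5 TPM against at least 37.9. GPNMB, a glycoprotein of macrophages and other cells, had 1.98 to 15.4 TPM in heart against at least 27, and NHERF1, which organises transporters in epithelia, 1.21 to 5.37 TPM against at least 41.2. The rule that named these 8 genes required all heart libraries to lie below all others. All 8 calls held on both scales.

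The secretory pathway was heart-low in 12 of 22 measured genes, against 4.60% of all genes. Heart had the lowest mean for 21 of the 22, and for 6173 of all 16413 genes tested. The count of heart-low genes was 2 with median-ratio scaling, SEC61A1 and SEC61B, the main and a small subunit of the channel into the endoplasmic reticulum. SEC61A1 had 16.1, 23.3 and 28.6 TPM in heart and 76.4 to 225 TPM elsewhere, and its smallest difference was log2 -1.96 (SE 0.11, limma adjusted p = 2.2e-23). CALR, a calcium-binding chaperone, had 138, 165 and 215 TPM in heart and at least 390 elsewhere. Of 19 lysosome and proteasome genes 6 were heart-low, among them CTSB at 149, 225 and 280 TPM in heart against at least 394, and GLA at 2.34, 3.81 and 6.33 TPM against at least 10.5. The lysosome genes LAMP1, LAMP2, CTSB and CTSL were not called with median-ratio scaling, and GLA was. Of 10 antioxidant genes GPX1 and PRDX5 were heart-low as deposited and not with median-ratio scaling. CAT, catalase, had 66.7, 128 and 144 TPM in heart and means of 3365 TPM in liver and 2442 in kidney, but 130 in spleen. None of 20 ribosomal protein genes was called, against 7.98% of all genes.

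Markers of other cell types differed by type. The pericyte genes RGS5 and KCNJ8 were heart-high, at 81.0, 131 and 189 TPM and 61.2, 101 and 136 TPM in heart against at most 30.2 and 26.5 elsewhere. MYH11 and ACTA2 of smooth muscle averaged 18.1 and 176 TPM in heart, 109 and 543 in lung and 189 and 632 in spleen. Of the 14 listed genes 3 were heart-high, DES among them, which heart muscle also makes. The summed level of that list was 1539 to 4875 TPM in heart, with medians of 288 (kidney), 107 (liver), 1850 (lung) and 2635 TPM (spleen). Of 14 endothelial genes none was heart-high, against 3.38% of all genes, and 1 was heart-low, against 4.60%. This was PLVAP, of vessels with a diaphragm, at 5.42, 16.5 and 40.2 TPM in heart against at least 59.2. The endothelial sum was 396 to 847 TPM in heart, with a median of 619, and had medians of 394 (kidney), 309 (liver), 2184 (lung) and 1475 TPM (spleen). None of 12 fibroblast genes was heart-high, and 5 were with median-ratio scaling, where 3.38% and 6.95% of all genes were. COL1A1 and COL3A1 were among the 5, at 77.7 and 226 TPM on average in heart. The fibroblast sum was 1027 to 2480 TPM in heart, with a median of 1498, and had medians of 508 (kidney), 1009 (liver), 2503 (lung) and 1068 TPM (spleen).

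Fat, nerve and skeletal muscle markers gave mixed levels. FABP4, found in fat cells and in endothelium, was heart-high at 53.3, 140 and 340 TPM, while the fat cell genes ADIPOQ, PLIN1 and CIDEC averaged 0.640, 0.324 and 1.35 TPM. The listed genes of Schwann cells and neurons summed to 9.74, 24.7 and 47.3 TPM in heart, with medians of 85.3 (kidney), 28.2 (liver), 73.5 (lung) and 26 TPM (spleen). Of 6 tested skeletal muscle markers 4 were heart-high, against 3.38% of all genes. They were TNNT1, MYL1, CKM and MYOT, of which heart muscle also makes CKM and MYOT. TNNT1 had 71.4, 119 and 292 TPM in heart and MYL1 1.01, 8.82 and 48.2 TPM. PVALB, of fast skeletal fibres, was listed at 0 in all 12 heart libraries, and TNNI2 stayed at or under 0.816 TPM. The listed skeletal genes summed to 3337 to 7601 TPM in heart, of which CKM alone had 3047 to 7158, and their part in the results was not tested.

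No marker of B cells, T cells, macrophages or neutrophils was heart-high, and 6 of 37 measured were heart-low as deposited, against 3.38% and 4.60% of all genes. JCHAIN of plasma cells had 4.23, 7.60 and 12.2 TPM in heart against at least 22.6, CD247 of T cells 0.855 to 1.78 TPM against at least 2.88, and AIF1 of macrophages 6.38 to 14.4 TPM against at least 20.3. JCHAIN alone of these 6 was called with median-ratio scaling. Of 16 epithelial genes 5 were heart-low, with EPCAM at 0 to 0.129 TPM, CLDN3 at 0 to 0.332 and CDH1 at 0.144 to 1.51 TPM in heart. Markers of kidney tubule and lung alveolus were near 0: UMOD and SFTPB had a median of 0 TPM in heart and reached at most 0.911 and 0.0978 TPM. ALB of hepatocytes had 1.13, 2.32 and 39.2 TPM in heart, against 36487 to 102070 in liver. HBB of red cells had 173, 907 and 2733 TPM in heart and overlapped with every other organ.

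The heart libraries also differed among themselves. The 6 genes that varied most were NPPB, LDHB, ATF3, RNase_MRP, MRPL57 and FOS. ATF3, an immediate stress gene, had 371 TPM in the DQ3 heart library and 1.29 to 50.05 TPM in the other 11, and FOS reached 97.5 TPM in DQ3 and 1.53 TPM in DQ2. MRPL57, a mitochondrial ribosomal protein, had 92.7 to 136 TPM in the 4 BS hearts, 35.2 to 43.3 in the 4 DSE hearts and 1.80 to 32 in the DQ hearts. LDHB, the heart form of lactate dehydrogenase, had 0.594 TPM in BS1 and 0.468 in DQ3, against 87.4 to 247 TPM in the other 10 hearts. Its symbol stands in the tables at a locus of 1 exon and 1281 bases (chr2:12988755-12990035), while RefSeq names LDHB both there and at chr5:51810932-51831218, so the values may not be those of the gene on chromosome 5. NPPB was at 0.171 to 0.668 TPM in DQ1, DQ2 and DQ3 and at 8.64 to 140 TPM in the other 9.

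Chamber genes varied too, and the labels do not name the chamber. MYH6 is given here after its values were seen. MYH6, the fast myosin of atrium, had 44.6 to 173 TPM in BS hearts, 18.5 to 93.0 in DSE hearts and 88.4 to 1124 in DQ hearts. NPPA had 9.31 to 72.1 TPM in BS hearts, 18.2 to 87.9 in DSE and 1.69 to 46.6 in DQ. MYH6 had its highest library among DQ hearts and NPPA among DSE hearts. The heart difference of MYH6 was itself called higher in BS than in DSE by the test that follows (log2 1.55, limma adjusted p = 0.026).

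**Figure D4:**
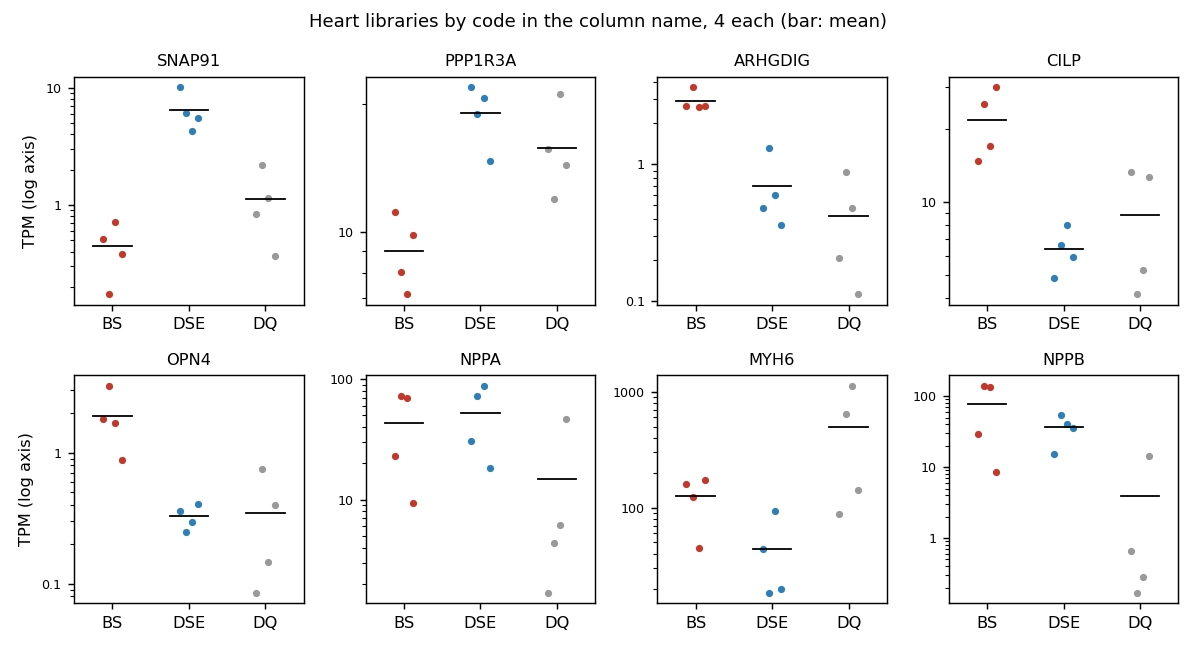
Points are the 12 heart libraries by the code of their column, BS, DSE and DQ, with TPM on log axes, and bars mark the mean of each 4. SNAP91 and PPP1R3A are highest in DSE hearts, ARHGDIG, CILP and OPN4 in BS hearts, and NPPA, NPPB and MYH6 spread most among the DQ hearts, with MYH6 at 88.4 to 1124 TPM.

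The heart difference itself, heart minus the mean of the 4 other organs, differed between BS and DSE pigs in few genes. Of 16481 genes tested, 28 (0.170%) had a higher heart difference in BS and 13 (0.0789%) a lower one, at 2-fold or more and an adjusted p under 0.05. At an unadjusted p under 0.05 there were 1651. The imbalance was not kept on other scales, with 32 higher and 30 lower genes under median-ratio scaling and 24 and 28 without the mitochondrial genome. Leaving out all libraries of 1 pig number in turn gave 19 to 28 and 9 to 18 genes. The fewest higher genes came without BS2 and the most lower genes without DSE2. SNAP91, known for synaptic vesicle uptake, had 0.508, 0.173, 0.710 and 0.386 TPM in BS hearts and 10.04, 6.12, 4.28 and 5.50 TPM in DSE hearts, a difference of log2 -2.13 (limma adjusted p = 4.7e-10). CILP, a cartilage and matrix protein, had 14.7, 25.5, 17.1 and 29.8 TPM in BS hearts and 4.82, 6.65, 8.06 and 5.92 TPM in DSE hearts, a difference of log2 1.51 (limma adjusted p = 1.6e-05). PPP1R3A, the muscle subunit that brings a phosphatase to glycogen, had 11.1, 8.07, 7.14 and 9.83 TPM in BS hearts and 21.9, 19, 20.7 and 14.7 TPM in DSE hearts, a difference of log2 -1.01. The groups did not overlap in any of these genes, which were chosen for their low p in the same libraries. The lowest adjusted p belonged to ENSSSCG00000043612, a gene with no symbol at chr13:93051963-93053657. It had 1.0, 6.22, 0.946 and 1.63 TPM in BS hearts and 30.7, 27.6, 18.8 and 20.4 TPM in DSE hearts, a difference of log2 -3.08 (limma adjusted p = 1.0e-10).

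ARHGDIG, an inhibitor of small GTPases, had 2.67, 3.66, 2.63 and 2.7 TPM in BS hearts and 0.482, 1.32, 0.593 and 0.357 TPM in DSE hearts. It lies on the same strand across PDIA2, which was among the 28 genes as well, and their reads may be shared. OPN4, known as the light-sensing protein melanopsin, had 1.79, 3.24, 1.67 and 0.872 TPM in BS hearts and 0.361, 0.246, 0.294 and 0.407 TPM in DSE hearts. Neither gene overlapped between the codes, and both were chosen for their low p in the same libraries. In the other organs OPN4 reached at most 0.0342 TPM. The difference by code was log2 1.21 for ARHGDIG and 1.07 for OPN4.

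At the level of transcripts, 2059 of 43499 tested (4.73%) were heart-high and 1219 (2.80%) heart-low by the same rule, and 3422 and 550 with median-ratio scaling. The heart-high transcripts came from 1015 genes. Of them, 708 on 468 genes belonged to genes that were not heart-high themselves, and 5 to genes that were heart-low. RPS24, a ribosomal protein gene, had 4048 TPM in heart on average and 2245 to 5463 in the other organs. Its transcript ENSSSCT00000096351 had 684, 1597 and 1885 TPM in heart and at most 104 elsewhere. MYL12A, a light chain of nonmuscle myosin, averaged 229 TPM in heart and 354 in lung, where it was highest, but ENSSSCT00000004090 had 24.6, 67.8 and 109 TPM in heart and at most 0.597 elsewhere. The transcript PB.17065.6 of SMTN, smoothelin, had 18.3, 54.2 and 75.8 TPM in heart and at most 0.467 elsewhere, and ENSSSCT00000031680 of MACROH2A1, a histone variant, 46.5, 81.1 and 159 TPM against a highest value of 29. No library of another organ overlapped with heart for these 4 transcripts.

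Transcript usage, a transcript's share of its gene's TPM, does not depend on the scaling of a library. It was tested for 16657 transcripts of 5041 genes with at least 5 TPM in every organ, and was called where its usage moved by 20 percentage points or more the same way against all 4 organs. Of the transcripts 255 (1.53%) were used more in heart and 182 (1.09%) less, on 269 genes (5.34%). Without the 5 libraries that stood apart 273 genes were called, and among libraries with and without Y-linked transcripts 224 and 274. Of the 269 genes 20 were heart-high (7.43%) and 8 heart-low, where 91 (1.81%) and 338 of the 5041 tested were. For 150 genes there was a transcript used more and another used less. The pair differed by an inner exon in 123 of these (82.0%), in the first exon in 43 (28.7%) and in the last in 14 (9.33%). Among 3961 genes tested and not called, the 2 most used transcripts differed by an inner exon in 51.8%, in the first in 31.9% and in the last in 12.7%. Of 20 tested genes that were listed for known heart splicing, 12 were called. That list, like the other lists, was chosen with earlier results of these data known.

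The largest shift was in SLC25A3, which brings phosphate into mitochondria and has a pair of exons that exclude each other. In heart PB.7437.1 made up 90.4, 92.6 and 94.4% of its TPM, against at most 4.07% in any other library (limma adjusted p = 2.6e-40). It carries a coding exon of 125 bases at chr5:85290413-85290537. The transcript of the other organs, PB.7437.2, has in its place an exon of 121 bases at chr5:85290132-85290252. It made up 5.09% in heart and 90.4 to 93.3% on average in the other organs. Full-length reads gave PB.7437.1 93.3% in the BS heart library (460 of 493 reads, 95% Wilson interval 90.7 to 95.2%), 98.4% in DSE (61 of 62, 91.4 to 99.7%) and 92.4% in DQ (351 of 380, 89.3 to 94.6%). In the other organs these reads gave it 11.3 to 25.7%, more than the short reads did. Shares of full-length reads are over those of a gene's transcripts that have such counts, and shares of TPM over all its transcripts. Isoforms outside the annotation of the TPM tables are in neither.

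TPM1, tropomyosin, used PB.724.22 in heart, at 87.7, 91.0 and 93.5% of its TPM, with BS4 liver at 25.5% as the only other library above 0.525%. It differs from PB.724.17 in its first exons, in an exon of 76 bases at chr1:108997525-108997600 against chr1:108998047-108998122, and in its last exons. Of the full-length reads of TPM1 4450 of 4889 in heart were PB.724.22, against 1 of 512 in lung and none of 365 in kidney, 39 in liver and 272 in spleen. Counts of 0 allow up to 0.822% in kidney, 7.69% in liver and 1.1% in spleen. PKM, pyruvate kinase, used PB.10355.16 at 59.3, 76.9 and 81.6% in heart and at most 21.2% elsewhere. It has the exon of 167 bases at chr7:61028764-61028930, and PB.10355.17 of the other organs the one of equal length at chr7:61029321-61029487. Full-length reads gave PB.10355.16 1865 of 2246 in heart, against 11 of 876 (kidney), 5 of 36 (liver), 39 of 537 (lung) and 50 of 350 (spleen).

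Among the largest shifts were also IDH3B and ACSS2. IDH3B, a subunit of isocitrate dehydrogenase, used PB.19742.13 at 69.7, 82.1 and 84.8% in heart and at most 5.52% elsewhere. That transcript skips an exon of 198 bases at chr17:32959676-32959873, of which 87 are coding, so that the last exon becomes coding. Of the IDH3B full-length reads counted, 174 of 177 in heart, 3 of 3 in kidney and 1 of 1 in lung were PB.19742.13. The form of the other organs, ENSSSCT00000007846, has no full-length counts, so these reads cannot be set against the shift. ACSS2, acetyl-CoA synthetase, used ENSSSCT00000048008 at 76.2, 81.9 and 86.4% in heart and at most 6.98% elsewhere, and this transcript adds an exon of 39 bases at chr17:38303860-38303898. ATP5F1C, of ATP synthase, used ENSSSCT00000055086, which lacks the exon of 36 bases at chr10:63585094-63585129, at 21.2, 26.3 and 33.5% in heart and at most 3.75% elsewhere. The other form still led in heart, at 71.6%. LMAN2L, a lectin of the secretory route, used PB.4612.47, with an extra exon of 33 bases at chr3:56894497-56894529, at 58.7, 73.5 and 80.0% in heart and at most 3.35% elsewhere.

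Some called transcripts carry short exons that the form of the other organs lacks or has in another version. CAMK2D, a calcium-dependent kinase, used PB.11531.74, with an exon of 33 bases at chr8:109173495-109173527, at 18.3, 22.4 and 26.9% in heart and at most 0.453% elsewhere, while 3 of 810 full-length reads in heart were this transcript. FXR1, an RNA-binding protein, used PB.15965.9, with exons of 81 and 92 bases at chr13:118894150-118894230 and chr13:118897888-118897979, at 28.3, 33.5 and 49.6% in heart and at most 0.152% elsewhere, and 17 of 197 full-length reads in heart were this transcript. MEF2D, a transcription factor, used ENSSSCT00000038518, with exons of 135 and 21 bases at chr4:93601626-93601760 and chr4:93605620-93605640, at 26.7, 35.3 and 49.6% in heart and at most 2.62% elsewhere. In MEF2D the form without these exons, ENSSSCT00000007100, averaged 46.5% in heart and 45.0 to 51.2% in the other organs and was not called. In its relative MEF2A, PB.1023.16 with an exon of 24 bases at chr1:138497974-138497997 averaged 15.8% in heart and 0.211% in lung, under the 20 points needed, while PB.1023.29 was used less in heart, at 18.2% against 41.6 to 46.3%. CRYAB was called too, with ENSSSCT00000056695 at 92.8 to 96.7% in heart and 0 to 68.4% in kidney. PB.12089.8, called used less in heart, averaged 61.8 to 95.7% of TPM in the other organs. Full-length reads of CRYAB hardly held PB.12089.8, with 2 of 58 in lung and none of 716 in heart, 76 in kidney, 12 in liver and 2 in spleen.

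The 2 kinds of reads gave different shares for some of these transcripts, and the shares are over unlike sets of transcripts, as given above. ATP2A2 used PB.16853.4, which splices to a last exon at chr14:31744174-31744980 and marks the known muscle form of the pump, at 18.6, 38.8 and 54.2% of TPM in heart and at most 7.93% elsewhere. Of its full-length reads 95% in heart were PB.16853.4, 6225 of 6554, against 3 of 27 (kidney), 1 of 9 (liver), 10 of 28 (lung) and 5 of 20 (spleen). In PDLIM5, a Z-disc protein, PB.11645.39 averaged 79.1% of TPM in heart, with 33.3% as the lowest library, and 137 of 2559 full-length reads. None of 166 (kidney), 111 (liver), 203 (lung) and 112 (spleen) full-length reads of PDLIM5 was PB.11645.39, which allows up to 1.81, 2.7, 1.48 and 2.68%. In ASPH, PB.5688.33 of 5 exons had 64.1, 72.4 and 80.0% of TPM in heart against at most 2.46%, and 2 of 54 full-length reads. FHL1, a muscle LIM protein, ranged widely, with PB.21184.34 at 7.68, 28.5 and 53.6% of TPM in heart and up to 12.1% in spleen, and 1189 of 1779 full-length reads in heart. COX6A2 was called for usage at 92.2 to 96.1% in heart, and at 0 to 33.2% in the other organs, where the gene had at most 22.1 TPM. The called transcript, ENSSSCT00000059824, has no full-length counts, so full-length reads cannot be set against the call. Of the COX6A2 reads counted in heart 514 of 523 were PB.4077.5, a transcript called used less in heart at 4.07% of TPM. Intervals of full-length reads cover counting error only.

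**Figure D5:**
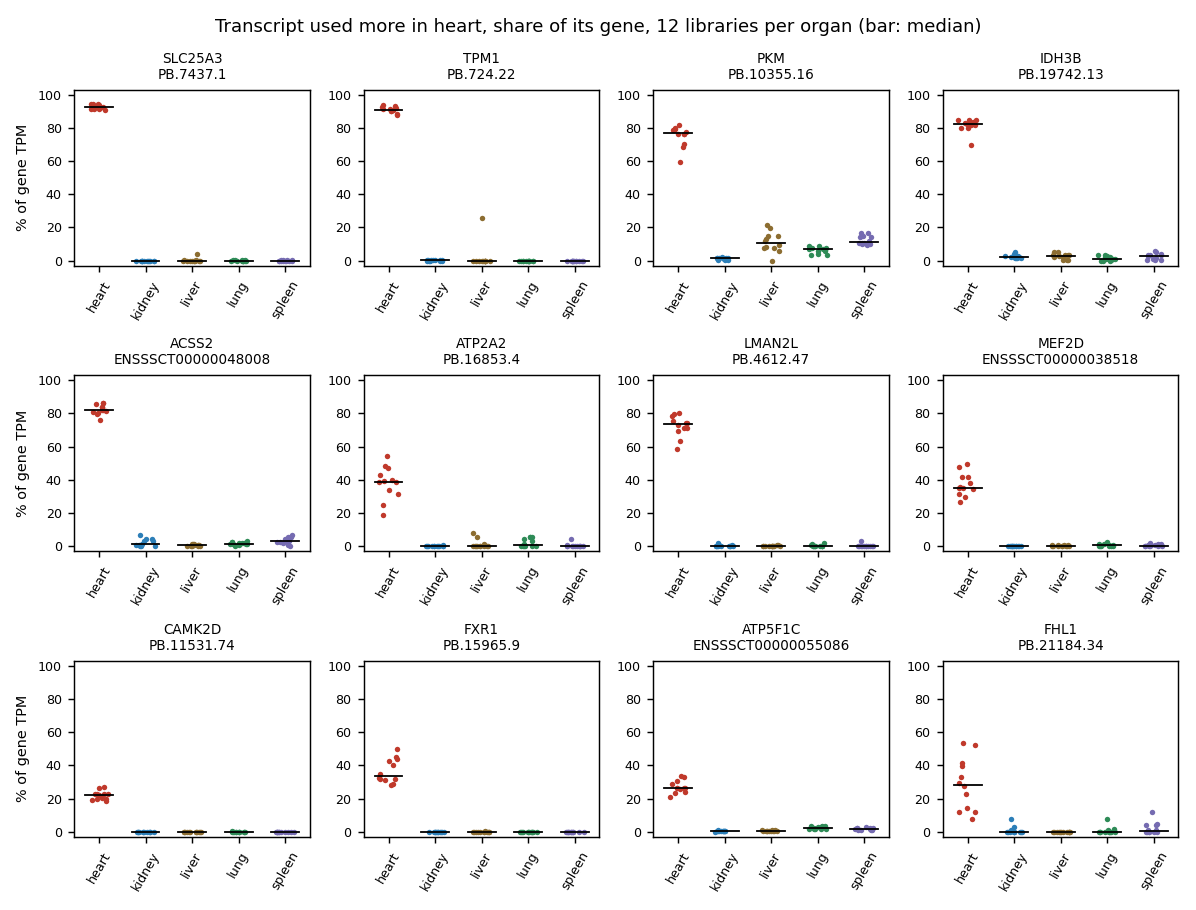
Each panel gives the share, in percent of its gene's TPM, of the transcript used more in heart in the 12 libraries of each organ, with heart at the left and bars at the median. The heart points stand apart in every panel except FHL1, where the lowest heart library, at 7.68%, lies below the highest spleen library, at 12.1%.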

How the data were processed

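The authors deposited TPM per gene and per transcript for 60 short-read libraries, and full-length read counts per isoform for 15 PacBio libraries. STAR 2.7.10a, Salmon 1.10.1 and the build susScr11 are named in the submitters' processing notes, with no role for either tool. Per kind of TPM file 20 columns, and 5 full-length columns, carry a code that no label has, and they were used by organ alone. TPM keeps no depth, so the short-read depth is unknown, while the full-length libraries held 119623 to 456783 reads as deposited counts.

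Genes and transcripts averaging 1 TPM or more in any organ were tested on log2(TPM + 1) with limma 3.58.1 in R 4.3.3 (with the data.table package, 1.17.8), with 1 mean per organ and 1 variance over all 60 libraries. A heart call needed at least 2-fold against each other organ and an adjusted p under 0.05 for the largest of the 4 p-values, with Benjamini-Hochberg adjustment over all features tested. Folds on this scale understate changes of low genes. Usage was tested in the same way on log2 of a transcript's TPM against its gene's other transcripts, with 0.5 added, where the gene had at least 5 TPM in every organ, the transcript at least 5% usage in 1 or more organs, and the shift was at least 20 points. Single library values were compared with 2-sided permutation tests of 100000 resamples, adjusted together. Intervals on full-length counts are 95% Wilson intervals and cover counting error only, and a count of 0 was taken to allow 3 reads. The fits were tested on simulated data. Tables and plots used Python 3.11.15 with pandas 2.3.3, numpy 2.4.6, scipy 1.17.1 and matplotlib 3.10.9.

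The organ markers and 48 gene lists, with 721 entries of which 662 matched a measured gene, were chosen with earlier results of these data known. Genes were named by rule: the 3 markers, the 12 genes farthest above and the 8 farthest below the other organs at 10 TPM or more, leading and called members of each list, the 8 genes with the largest usage shifts and the called genes of a list of known heart-spliced genes, the 6 genes that varied most among hearts, 5 genes with a symbol whose heart difference depended on pig code (an unnamed gene with a lower p is given beside them), and 5 heart-high transcripts of genes that were not heart-high. For the 12 and the 8 genes the rule also required that no heart library overlapped with a library of another organ. A few named genes are left out of this text. Strand of counting is not given in the sources used here, and 69 of 243 named genes overlap another annotated gene, 50 of them on the other strand, so their reads may be shared. The alternatives tried were median-ratio scaling over 13470 genes above 0 in every library, TPM without the mitochondrial genome, other pseudocounts, filters and folds, subsets of libraries, nuclear TPM alone, and a replicate block.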

Additional observations from a re-analysis of the deposited data

Results flagged for a closer look

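The heart difference, heart minus the mean of the 4 other organs, was tested for a difference between BS and DSE pigs with limma on log2(TPM + 1). Of the genes that differed by 2-fold or more, the 6 with the lowest adjusted p are given. BS minus DSE was log2 -3.08 for ENSSSCG00000043612, which has no symbol, -2.13 for SNAP91, 1.21 for ARHGDIG, -1.01 for PPP1R3A, 1.07 for OPN4 and 1.51 for CILP. The code stands for no stated breed or place, and batch and code cannot be told apart.

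In groups of 4 heart libraries of 1 code a single library stood far from the others by Dixon's criterion in 4 of 30 groups tested. The genes tested were the markers, those that varied most among hearts and those whose heart difference depended on code. Because some were chosen for their spread in these libraries, the count cannot be set against a chance rate. ATF3 had 16.9 TPM in the DSE1 heart, against 2.64, 4.61 and 4.14 TPM in the other DSE hearts. RNase_MRP, an RNA gene, had 42.9 TPM in the DSE4 heart, against 1.26, 1.05 and 0.938 TPM in the others. ARHGDIG had 3.664 TPM in the BS2 heart, against 2.67, 2.63 and 2.7 TPM in the other BS hearts. ENSSSCG00000043612 had 6.221 TPM in the same library, against 1.0, 0.946 and 1.63 TPM in the others.

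The full-length tables hold isoforms that the TPM tables do not. Of 828 isoforms read in all 3 heart libraries and in no library of another organ, 615 are in the annotation of the TPM tables and 213 are not.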

How the results depend on the processing

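The counts of genes and transcripts moved with the scaling. Median-ratio scaling gave 1127 heart-high and 278 heart-low genes, where 555 and 755 are reported, and TPM without the mitochondrial genome 845 and 346. For transcripts, reported as 2059 and 1219, median-ratio scaling gave 3422 and 550, and heart-low transcripts without the mitochondrial genome were 681. A pseudocount of 0.1 gave 1373 heart-low genes and 2982 heart-low transcripts. At 4-fold there were 278 and 109 genes and 963 and 174 transcripts, and DQ libraries alone gave 799 heart-low transcripts. Median-ratio scaling placed 2528 genes above and 2722 below kidney, 2442 and 2723 for lung, and 2979 and 2586 for spleen. Without the mitochondrial genome 4893 genes lay above liver, 1574 above and 5036 below lung, and 2414 above and 3693 below spleen. The 4-fold counts above and below were 551 and 1966 for kidney, 1195 and 1230 for liver, 493 and 2577 for lung, and 723 and 1967 for spleen. Heart-high members summed over lists were 161, and 255 with median-ratio scaling. Heart-low members were 39, against 16 with median-ratio scaling, 22 without the mitochondrial genome and 6 at 4-fold. APOA1 stood at log2 0.11 against the lowest other organ with median-ratio scaling, where -1.12 is reported.

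Usage counts moved by over 1.5 times under other filters and shifts, and under none of the other alternatives run. Transcripts used more, used less and genes were 151, 111 and 159 at a gene level of 10 TPM, 520, 398 and 581 with no filter, 584, 409 and 563 at 10 points, and 130, 90 and 145 at 30 points. For pig code, no minimum fold gave 66 higher and 29 lower genes, while 30 genes were lower with median-ratio scaling and 28 without the mitochondrial genome. Without 1 pig number in turn, 19 to 28 genes were higher and 9 to 18 lower. Without BS4, heart-high and heart-low genes were 543 and 771. The share of the 10 highest nuclear genes in heart minus kidney, reported as 0.735 points, passed the test at 1.27 with labelled libraries only and at 1.04 without the DQ4 heart. Over nuclear TPM alone, an alternative chosen after seeing the data, heart minus kidney passed at 4.18 points, heart minus lung no longer passed at -0.471, and heart minus spleen turned to 0.290 and did not pass. Of 242 named genes, 32 lost their call under 1 or more alternatives, 27 gained one and 1, APOA1, reversed. Calls were also lost by 6 of 29 named transcripts and by 2 of 5 pig code genes.

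The replicate numbers were checked as a pairing of BS and DSE libraries: 18 of 32 pairs of libraries with the same code and number had deviations correlated above 0.1 (median 0.128, range -0.109 to 0.433), and the labels name no animal, so the numbers were not taken as pairs. As a hint from the data, Y-linked transcripts were in all 5 BS4 libraries and in none of the other BS libraries, LDHB was near 0 in all 5 of BS1, and each of the 4 correlations was above 0.1 for BS1, BS4 and DSE4. The replicate block gave 562 and 839 genes, 2096 and 1404 transcripts, 280 genes with a usage change, 30 and 13 pig code genes, and a nuclear gene share of 1.27 points in heart minus kidney. Short-read depth is unknown, so low values carry no interval.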

Other observations

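Among the 555 heart-high genes the highest of the other organs was lung for 207 (37.3%), kidney for 170 (30.6%), spleen for 118 (21.3%) and liver for 60 (10.8%). Over all genes tested the shares were 39.3%, 27.3%, 25.5% and 7.94%.

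Transcripts known from the long reads took 29.7 ± 1.70% of heart TPM, against means of 38.3% (kidney), 42.5% (liver), 40.2% (lung) and 41% (spleen) (SD, n = 12 each). The adjusted permutation p was 4.6e-05 against kidney and 2.7e-05 against each of the 3 others. Over nuclear TPM alone the differences were smaller, at 41 ± 0.875% in heart and means of 45.9% (kidney), 45.8% (liver), 42.4% (lung) and 43% (spleen), with adjusted permutation p of 3.4e-05 for kidney, 0.00091 for liver and spleen and 0.01 for lung.

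LDHB was near 0 in every organ of BS1, at 0.594 TPM in heart and at most 0.288 TPM in the 4 other organs, with 0 TPM in lung. In the other 3 BS libraries it was 87.4 to 224 TPM in heart and 17.4 to 171 TPM in kidney, liver and spleen. Among DQ columns it was near 0 in heart 3 and kidney 3, at 0.468 and 0.288 TPM, and in lung 4, at 0.0648 TPM. A DQ number may not stand for the same animal in every organ. Transcripts of EIF1AY and ZFY summed to 80.7 and 104 TPM in DQ3 heart and kidney. They were at 0 in DQ3 liver, lung and spleen, while these organs of DQ2 held 46.0 to 109 TPM.

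Over all 3 heart full-length libraries 32489 isoforms were read, of which 20961 are in the annotation, and 10351 were read in each of the 3. All 15 libraries together held 51774 isoforms, 34778 of them annotated.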
